A study of Mus musculus with 32 samples.

Results

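The wild type ventricle was described from every array titled as a wild type control, 10 of the 32 arrays of the series. Of these, 5 were of a first Affymetrix array type and 5, marked bV2 in their titles, of a second type with other probe sets. The samples were total RNA of the cardiac ventricle of wild type mice with a normal cardiac phenotype. The 2 other groups, used only where named, carry a cardiac specific AT1 transgene. On each array type they comprise 8 arrays of mice in cardiac hypertrophy and 3 of mice in cardiac failure. The labels do not spell out AT1, do not name the promoter of the transgene and give no age, sex or strain. Whether each array is of its own animal is not said, so SDs and p-values cover only the spread seen between arrays, part of which may be technical.

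The ventricle is the pumping chamber of the heart. Most of its mass is cardiomyocytes, which hold sarcomeres of thick myosin and thin actin filaments and many mitochondria, and which burn mainly fatty acids through oxidative phosphorylation. Endothelial cells, fibroblasts, smooth muscle cells, pericytes and leukocytes make up the rest. Many muscle and mitochondrial proteins come in isoforms from separate genes, and the heart uses a particular member of each family. In bulk RNA of this kind, fewer cells of a type and less RNA per cell cannot be told apart.

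Each gene was taken at its brightest probe set by mean over the 5 wild type arrays, which gave 8251 genes on the first array type and 7532 on the second. The signal is the deposited linear intensity, with no unit. It depends on the probes as well as on the RNA. Where a gene had several probe sets and the brightest was at or above the median of all wild type signals (109 on the first type), the brightest exceeded the next by a median of 3.16-fold on the first array type and 2.96-fold on the second. In 1 in 10 of these genes the difference exceeded 16.9-fold and 12.3-fold. Ranks and orders below therefore describe signal, and the order of 2 genes whose signals differ by less than these folds carries no more information than the order of 2 probe sets of 1 gene. Over the 2123 genes measured on both types, mean signals correlated with a Spearman rho of 0.092 across genes.

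The wild type arrays were alike in level. Their medians lay between 106 and 113 on the first type and between 72.7 and 75.1 on the second, and arrays of a type correlated across probe sets with r from 0.970 to 0.988 and from 0.969 to 0.980. The 5′ to 3′ ratio of the Gapdh control probe sets, a measure of RNA length, was 0.889 ± 0.054 (SD, n = 5) on the first array type and 0.843 ± 0.052 (SD, n = 5) on the second. That of the Actb control probe sets was lower, at 0.623 ± 0.082 (SD, n = 5) and 0.747 ± 0.144 (SD, n = 5). It was less even between arrays, from 0.545 to 0.752 on the first type and from 0.654 to 1.002 on the second. Replicate 2 held the lowest signal of the 5 for 37.0% of the 4259 genes at or above the median in all 5 arrays of the first type. Xist, the RNA that coats the silenced X chromosome, had signals of 134, 144, 15.2, 15.5 and 4.98 in replicates 1 to 5 of the first type. The Y-linked Eif2s3y had signals of 2.48, 7.88, 39.7, 30.3 and 40.3. Xist was thus above the 20th percentile of the type (39.5) in replicates 1 and 2 only. The Eif2s3y signals, and on the second type those of Xist (1 to 39.4), lay around or below the 20th percentile (39.5 and 27.5), where signals are not told apart from background.

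Sarcomere transcripts led the order of signal on the first array type. Of the 10 brightest genes, 7 encode parts of the thick and thin filaments, and the 10 together made up 3.23% of the summed signal of all genes. Of the 21 contractile and Z-disc genes measured, 11 were among the 100 brightest, and 20 were above the median gene. The 100 brightest are 1.21% of the genes of this type.

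Among the thick filament genes, Myl2, the ventricular regulatory light chain of myosin, had signals of 8212, 8240, 8757, 8736 and 8540 in replicates 1 to 5, a mean of 8497 ± 261 (SD, n = 5). Myh6, the alpha myosin heavy chain, had 8590, 8316, 8553, 8324 and 8489, a mean of 8454 ± 128 (SD, n = 5). These were the 2 brightest genes in every array, and their ranges overlapped. Myl3, the ventricular essential light chain, had a mean of 6897 ± 736 (SD, n = 5). Mybpc3, cardiac myosin binding protein C, had 4650 ± 583 (SD, n = 5). Its signal in replicate 2 was 3635, below the 4757 to 5121 of the other 4 arrays.

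Among the thin filament genes, Actc1, cardiac alpha actin, had signals of 6884, 7047, 7362, 7483 and 6556, a mean of 7067 ± 373 (SD, n = 5). Its other probe set, of the incomplete kind, had a mean of 4961 ± 263 (SD, n = 5). The troponin subunits form the calcium switch of the thin filament. Their means were 6935 ± 404 (SD, n = 5) for Tnni3, the inhibitory subunit, 6337 ± 290 (SD, n = 5) for Tnnt2, which binds tropomyosin, and 4701 ± 244 (SD, n = 5) for Tnnc1, which binds calcium. Of the Z-disc genes, Ankrd1, a stress responsive ankyrin repeat protein, was brightest at 3591 ± 847 (SD, n = 5), followed by Actn2, the muscle alpha actinin, at 2038 ± 153 (SD, n = 5). Tcap, which caps titin, was the exception among the 21, at 108 ± 24.4 (SD, n = 5), below the median of all genes of 137.

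Respiratory chain and ATP synthase transcripts were the largest functional group of bright genes. Of 68 measured, 28 were among the 100 brightest genes and 61 above the median gene, and together they made up 5.55% of the summed signal against 3.42% for the contractile and Z-disc genes. The counts among the 100 brightest were 9 of 29 for complex I, 7 of 13 for complexes II and III, 7 of 13 for complex IV and 5 of 13 for ATP synthase. Cox6a2, the muscle isoform of a cytochrome oxidase subunit, led them with signals of 6630, 6784, 7189, 6920 and 6909, a mean of 6886 ± 206 (SD, n = 5). Cox6c, a further oxidase subunit, had 4443 ± 140 (SD, n = 5), and Atp5a1, the alpha subunit of ATP synthase, had 4350 ± 234 (SD, n = 5). Uqcrq of complex III had 3887 ± 169 (SD, n = 5), and Ndufa5 of complex I had 3530 ± 201 (SD, n = 5). Slc25a4, which exchanges ATP for ADP across the inner mitochondrial membrane, was the brightest carrier at 6409 ± 345 (SD, n = 5). The respiratory genes were not uniformly bright: Cox8a was lowest at 33.0, below the 20th percentile of the array type at 39.5.

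Of the 57 genes of fatty acid use, the TCA cycle and glycolysis, 14 were among the 100 brightest and 50 above the median gene. Fabp3, the heart fatty acid binding protein, had 4422 ± 553 (SD, n = 5), and Lpl, which frees fatty acids from lipoproteins, had 4275 ± 207 (SD, n = 5). Aldoa of glycolysis had 4871 ± 248 (SD, n = 5). Mdh2 and Idh2, mitochondrial malate and isocitrate dehydrogenases, had 2884 ± 250 (SD, n = 5) and 2829 ± 315 (SD, n = 5). Myoglobin, Mb, which stores oxygen, had 6022 ± 699 (SD, n = 5), while its second probe set had 141. Of 25 cytosolic ribosomal protein genes, 4 were among the 100 brightest, led by Rpl41 at 4154 ± 450 (SD, n = 5).

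**Figure D1:**
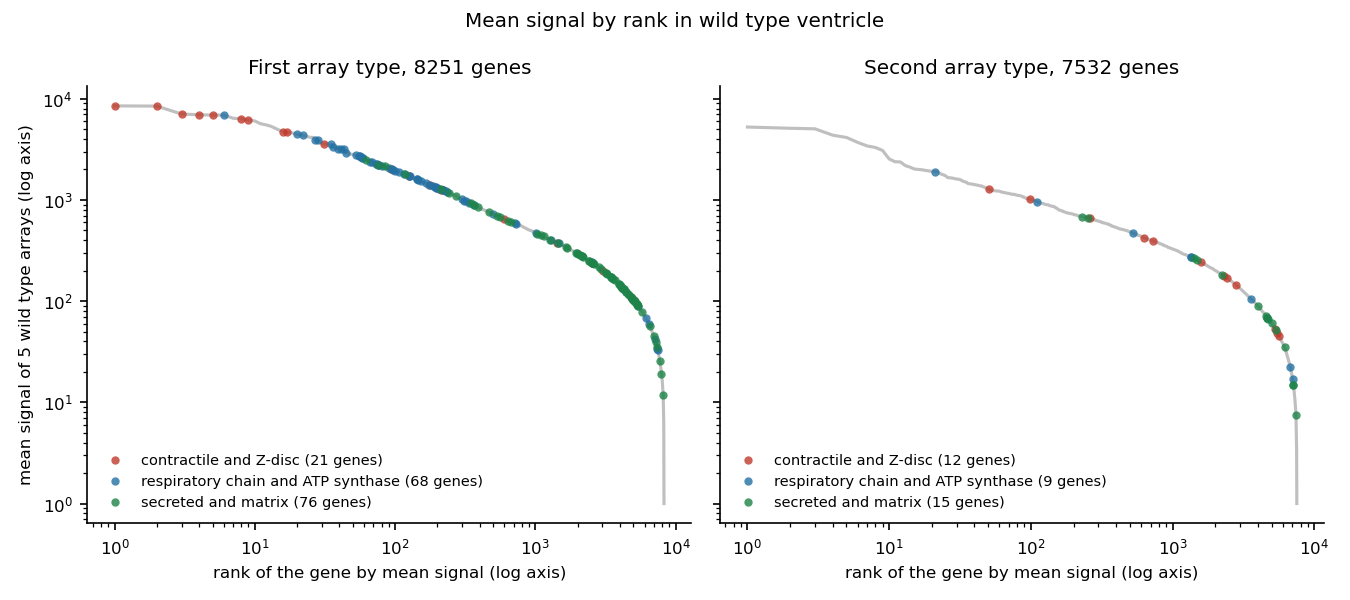
Mean signal over 5 wild type arrays (vertical, log axis) against the rank of each gene (horizontal, log axis), for the 8251 genes of the first array type (left) and the 7532 of the second (right). The grey line is all genes, and points mark contractile and Z-disc (red), respiratory (blue) and secreted or matrix genes (green): on the first type 11 of 21, 28 of 68 and 3 of 76 of them lie within rank 100.

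Calcium cycling genes were led by Atp2a2, the pump that returns calcium to the sarcoplasmic reticulum, at 5349 ± 267 (SD, n = 5). It was the only one of 8 measured on the first type within the 100 brightest. Hrc, the histidine rich calcium binding protein of the reticulum, had 1838 ± 164 (SD, n = 5), and its replicate 1 at 2127 stood above the 1728 to 1799 of the other arrays. The calcium store protein Casq2 had 698 ± 85.1 (SD, n = 5) and the release channel Ryr2 521 ± 102 (SD, n = 5). Sln, the pump inhibitor of atria, had 50.6 ± 22.7 (SD, n = 5), below the median of the type. Pln, phospholamban, the main inhibitor of the pump in ventricles, is on the second type only, where its signals were 4541, 4854, 4656, 4040 and 3714, a mean of 4361 ± 470 (SD, n = 5), rank 4 of 7532.

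On the first type, the median signal was 262 for 15 cardiac transcription factors and 133 for 24 immediate early genes, against 137 for all genes. None of either list was among the 100 brightest, where 1.21% of all genes are. Hopx, a cofactor of heart development, was brightest of the first list at 1625 ± 203 (SD, n = 5), and Jund, a subunit of AP-1, the second at 1653 ± 264 (SD, n = 5). Of the chaperones, the small heat shock protein Hspb8 had 1490 ± 181 (SD, n = 5), Cryab, the alpha B crystallin of muscle, 1412 ± 216 (SD, n = 5) and the constitutive Hspa8 1296 ± 234 (SD, n = 5).

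Of 76 measured secreted hormones, growth factors, plasma and matrix proteins, 3 (3.95%) were among the 100 brightest, against 1.21% of all genes, and 49 were above the median gene. Together they made up 1.36% of the summed signal. The 3 were Dcn, the fibroblast proteoglycan decorin, at 2508 ± 225 (SD, n = 5), Nppb, B-type natriuretic peptide, at 2225 ± 868 (SD, n = 5), and Cst3, the protease inhibitor cystatin C, at 2164 ± 239 (SD, n = 5). The 76 do not hold every secreted product. Lpl, at 4275, Ptgds, at 2602 ± 1057 (SD, n = 5), and Tff3, at 2052 ± 57.4 (SD, n = 5), were also among the 100 brightest. Ptgds had 4453 in replicate 2. Among the 76, Nppa, atrial natriuretic peptide, followed at 1805 ± 836 (SD, n = 5) and Mgp, matrix Gla protein, at 1278 ± 248 (SD, n = 5). Vegfb was the brightest listed growth factor after the natriuretic peptides at 844 ± 63.2 (SD, n = 5). Of 26 hormones and growth factors, 13 reached the median signal in all 5 arrays, against 51.6% of all genes.

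Some bright genes have no known part in heart muscle, and for several of these another probe set of the gene was dim. Cma1, a mast cell chymase, had 4145 ± 81.1 (SD, n = 5), with 1057 and 55.8 for its other probe sets. Sprr1b, an epidermal envelope protein, had 3573 ± 303 (SD, n = 5), with 22.5 for its other probe set. Tyms-ps, a pseudogene, had 4635 ± 149 (SD, n = 5), with 56.4 for the other, and Trav9d-3, a T cell receptor segment, had 3272 ± 431 (SD, n = 5), with 366 and 72.7. Wdr92 had 5096 ± 838 (SD, n = 5) on the first array type and 66.7 on the second. Of the 100 brightest genes, 64 belonged to a contractile, mitochondrial, metabolic, calcium, secreted or ribosomal list and 36 to none. The 36 are not all genes foreign to heart: they include myoglobin (Mb), the ventricular connexin Gja1 and the mitochondrial Nipsnap2.

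The remaining genes of the 25 brightest on the first type were Hba-a1, an alpha globin of red cells, at 5519 ± 754 (SD, n = 5), and Tpt1, the translationally controlled tumour protein, at 5658 ± 161 (SD, n = 5). Nipsnap2, a mitochondrial protein, had 4199 ± 419 (SD, n = 5). Eef1a2, the elongation factor of muscle and neurons, and Myh7, the beta myosin heavy chain, are described with their families below.

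The second array type carries few of these genes. Its order was led by Napb, a vesicle fusion factor, at 5251 ± 464 (SD, n = 5), Lim2, a lens membrane protein, at 5106 ± 816 (SD, n = 5), and Usp24, a deubiquitinase, at 5041 ± 689 (SD, n = 5). Pln was next, followed by Sec14l4 at 4142 ± 123 (SD, n = 5). Of its 100 brightest genes, 7 belonged to a contractile, mitochondrial, metabolic, calcium, secreted or ribosomal list. Slc25a4 at 3703 ± 386 (SD, n = 5), Fabp3 at 2024 ± 330 (SD, n = 5) and Atp2a2 at 1146 ± 139 (SD, n = 5) were among them, as on the first type. Hspb6 and Hspb7, small heat shock proteins of muscle, had 2384 ± 402 (SD, n = 5) and 2001 ± 303 (SD, n = 5). The other genes of its 25 brightest included Cadm3, a cell adhesion protein, at 3413 ± 607 (SD, n = 5), Ahnak2 at 3299 ± 246 (SD, n = 5), Atxn3, a deubiquitinase, at 3079 ± 224 (SD, n = 5), and Sec22b, a vesicle transport protein, at 2542 ± 440.4 (SD, n = 5). The dimmest probe sets of Ahnak2, Atxn3 and Sec22b had 53.2, 90.9 and 50.2. Ndufs7 of complex I, at 1905 ± 237 (SD, n = 5), and Mpc1, a subunit of the mitochondrial pyruvate carrier, at 1811 ± 250 (SD, n = 5), were also among the 25. The rest were Cdc5l, Atg4b, Fth1, Ergic1, Incenp, Mphosph8, Scamp2, Trim30d, Kif24 and Srcap, from 1730 (Srcap) to 2375 (Cdc5l). The Z-disc protein Myoz2 had 1272 ± 166 (SD, n = 5), and Tmem38a, a potassium channel of the reticulum, had 1229 ± 81.1 (SD, n = 5). Agtr1a, the mouse angiotensin II type 1a receptor, had signals of 272, 262, 265, 217 and 207, a mean of 245 ± 30.0 (SD, n = 5). Of the 100 brightest genes of the first type, 16 are on the second, 12 of them above its median gene and 4 among its 100 brightest (Slc25a4, Fabp3, Fth1 and Atp2a2).

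Promoter windows were read for the whole contractile and respiratory lists, dim and unmeasured genes included, and no test of the shares was run. RefSeq windows (GRCm38.p6) from 250 bases before to 50 after each start were found for 26 of the 32 contractile and Z-disc genes (37 windows) and 68 of the 81 respiratory chain and ATP synthase genes (73 windows). Both strands were searched for 9 short words. The core promoter word was the TATA box, TATAAA. Of the muscle words, the GATA site was spelled AGATAA. The MCAT site, bound by TEAD factors, was spelled CATTCC, and the MEF2 site and the CArG box are given by name. Of the words known from mitochondrial genes, the site of the estrogen related receptors, ERR, was spelled AAGGTCA. The ETS word was CCGGAAG. The YY1 word was AAGATGGC, and the NRF1 site is given by name. A TATAAA match can lie inside a MEF2 match. The CArG box, bound by serum response factor, was in 18.9% of the contractile windows, in none of the respiratory ones and in 1.59% of the 8427 windows of all genes on the first type. The MEF2 site was in 10.8%, none and 0.439% of the windows, and MCAT, the TEAD site of muscle genes, in 35.1%, 11.0% and 12.7%. The ETS word was in none of the contractile windows, in 21.9% of the respiratory ones and in 14.4% of all. It was in 32.6% of the 43 windows of cytosolic ribosomal protein genes, so it was not particular to respiratory genes. In the 108 windows of the 100 brightest genes of the first type, shares were 13.9% for ETS, 16.7% for MCAT and 7.41% for GATA. There they were 3.70% for the CArG box and 0.926% for MEF2. For the contractile, respiratory and all windows in turn, the other words were as follows. YY1 was in none, 13.7% and 3.73%, the ERR site in none, 12.3% and 3.63%, and NRF1 in none, 6.85% and 1.70%. The contractile windows held a median of 5 CpG, the respiratory ones 19 and all windows 18. Windows of 1 gene overlap, and a match is a description and not a binding site.

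The 250 bases before the start are shown for Myl2 and Myh6, the brightest genes, and for the 4 brightest contractile or Z-disc genes with a CArG box or MEF2 match there. They read 5′ to 3′ on the strand of the gene, with every match to a searched word in capitals. Myl2 has 2 listed starts, of which the first is shown.

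Myl2, chr5:122092474-122092723, plus strand: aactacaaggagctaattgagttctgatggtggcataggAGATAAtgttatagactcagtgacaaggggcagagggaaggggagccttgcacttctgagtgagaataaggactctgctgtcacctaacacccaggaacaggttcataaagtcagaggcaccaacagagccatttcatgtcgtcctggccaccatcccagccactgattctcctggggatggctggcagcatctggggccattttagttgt
Myh6, chr14:54966608-54966857, minus strand: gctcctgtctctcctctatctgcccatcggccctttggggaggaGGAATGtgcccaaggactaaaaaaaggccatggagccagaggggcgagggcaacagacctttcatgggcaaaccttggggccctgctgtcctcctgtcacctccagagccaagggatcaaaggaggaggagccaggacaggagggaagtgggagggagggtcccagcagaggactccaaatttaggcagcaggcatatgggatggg
Actc1, chr2:114052876-114053125, minus strand: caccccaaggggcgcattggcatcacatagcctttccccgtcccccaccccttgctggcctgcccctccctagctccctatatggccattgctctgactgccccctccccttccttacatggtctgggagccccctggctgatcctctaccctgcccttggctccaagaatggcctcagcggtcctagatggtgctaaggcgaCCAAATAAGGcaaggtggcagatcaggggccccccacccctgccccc
Myl3, chr9:110763428-110763677, plus strand: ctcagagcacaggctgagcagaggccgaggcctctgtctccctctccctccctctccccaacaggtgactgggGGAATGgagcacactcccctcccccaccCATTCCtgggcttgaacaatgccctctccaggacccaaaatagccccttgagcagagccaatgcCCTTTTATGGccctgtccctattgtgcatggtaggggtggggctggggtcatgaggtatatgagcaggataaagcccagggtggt
Mybpc3, chr2:91117894-91118143, plus strand: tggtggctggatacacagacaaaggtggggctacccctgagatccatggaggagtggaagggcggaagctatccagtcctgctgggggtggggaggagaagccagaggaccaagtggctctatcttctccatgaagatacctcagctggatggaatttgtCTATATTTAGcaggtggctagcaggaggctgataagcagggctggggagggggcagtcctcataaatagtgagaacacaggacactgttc
Myom1, chr17:71019307-71019556, plus strand: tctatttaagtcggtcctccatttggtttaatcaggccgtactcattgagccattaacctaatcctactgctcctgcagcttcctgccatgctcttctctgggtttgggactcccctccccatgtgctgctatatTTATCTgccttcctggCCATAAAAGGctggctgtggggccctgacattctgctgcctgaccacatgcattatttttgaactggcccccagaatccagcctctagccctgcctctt

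In these windows the CArG box begins 47 bases before the start of Actc1, 85 before that of Myl3 and 99 before that of Myom1, which encodes the M-band protein myomesin. The MEF2 match of Mybpc3 begins 90 bases before the start. The windows of Myl2 and Myh6 hold a GATA and an MCAT match, beginning 211 and 206 bases before the start.

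No window was available for Cox6a2, Cox6c, Atp5a1, Uqcrq and Cyc1, so these bright respiratory genes were not searched. Of the respiratory genes with a window, the 4 brightest with an ETS, ERR, NRF1 or YY1 match in this stretch were Atp5l, Ndufb2, Ndufb7 and Uqcrh. Their windows hold 7 to 13 CpG, against 1 to 4 in the contractile windows above.

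Atp5l, chr9:44920743-44920992, minus strand: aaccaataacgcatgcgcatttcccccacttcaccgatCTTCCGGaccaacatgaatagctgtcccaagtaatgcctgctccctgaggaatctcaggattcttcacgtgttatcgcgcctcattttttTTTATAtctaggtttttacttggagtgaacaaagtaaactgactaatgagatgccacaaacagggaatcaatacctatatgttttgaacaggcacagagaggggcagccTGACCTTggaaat
Ndufb2, chr6:39592315-39592564, plus strand: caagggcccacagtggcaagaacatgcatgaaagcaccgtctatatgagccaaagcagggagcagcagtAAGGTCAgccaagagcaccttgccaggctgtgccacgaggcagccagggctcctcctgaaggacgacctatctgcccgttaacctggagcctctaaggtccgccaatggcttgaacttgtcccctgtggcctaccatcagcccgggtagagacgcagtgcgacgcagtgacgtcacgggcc
Ndufb7, chr8:83566508-83566757, plus strand: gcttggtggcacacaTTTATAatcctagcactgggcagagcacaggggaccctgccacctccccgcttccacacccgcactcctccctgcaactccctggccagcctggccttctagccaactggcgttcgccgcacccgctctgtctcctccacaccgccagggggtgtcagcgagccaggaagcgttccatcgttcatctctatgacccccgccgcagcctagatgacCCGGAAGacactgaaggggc
Uqcrh, chr4:116075071-116075320, minus strand: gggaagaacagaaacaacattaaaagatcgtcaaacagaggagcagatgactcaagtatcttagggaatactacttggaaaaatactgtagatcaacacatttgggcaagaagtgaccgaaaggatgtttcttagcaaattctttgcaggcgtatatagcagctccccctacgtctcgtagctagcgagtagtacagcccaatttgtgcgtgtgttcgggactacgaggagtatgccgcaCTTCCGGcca

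The ETS word begins 20 bases before the start of Ndufb7 and 10 before that of Uqcrh, and Atp5l holds both an ETS word and, 13 bases before the start, an ERR site. The natriuretic peptide genes, the brightest hormone genes and among the most variable genes between wild type arrays, lie near each other on chromosome 4.

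Nppb, chr4:147985650-147985899, plus strand: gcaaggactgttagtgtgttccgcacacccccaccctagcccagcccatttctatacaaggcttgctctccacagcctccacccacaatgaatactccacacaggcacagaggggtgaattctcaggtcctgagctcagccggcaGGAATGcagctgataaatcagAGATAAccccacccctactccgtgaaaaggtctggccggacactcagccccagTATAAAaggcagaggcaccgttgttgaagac
Nppa, chr4:148000472-148000721, plus strand: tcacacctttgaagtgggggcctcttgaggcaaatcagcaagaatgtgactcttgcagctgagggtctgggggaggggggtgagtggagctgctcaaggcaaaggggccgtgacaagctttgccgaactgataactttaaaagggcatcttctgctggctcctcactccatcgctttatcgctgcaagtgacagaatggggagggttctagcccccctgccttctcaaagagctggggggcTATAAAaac

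Nppb holds a MCAT and a GATA match beginning 105 and 84 bases before its start, and a TATAAA word beginning 31 bases before it. The window of Nppa holds a TATAAA word beginning 9 bases before the listed start.

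Within gene families, 1 member was usually brighter than the others in every array. Of 54 families with at least 2 members on the first type, 48 were led by the same member in all 5 wild type arrays, and in 47 the leading and the next member did not overlap. The lead exceeded the median fold between probe sets of 1 gene (3.16) in 25 families and the 90th percentile (16.9) in 5.

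The sarcomere families were led by the members known from adult ventricle. Myl2 stood at 8497 against 193 for Myl9, the next regulatory light chain, and 172 for the atrial Myl7. Tnnt2 stood at 6337 against 154 for Tnnt1, the slow skeletal member, and Tnni3 at 6935 against 344 for Tnni1, the slow skeletal and fetal member. Tnnc1 had 4701 against 369 for the fast skeletal Tnnc2, and Myl3 had 6897 against 682 for Myl1. Actc1 had 7067 against 1265 ± 379 (SD, n = 5) for skeletal alpha actin, Acta1. Both probe sets of Actc1 are of kinds shared between sequences or incomplete, and with plain probe sets only, the family was led by Acta1.

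The myosin heavy chains were closer. Myh6 at 8454 ± 128 (SD, n = 5) was above Myh7 at 6155 ± 498 (SD, n = 5) in every array, with 8316 as its lowest signal and 6624 as the highest of Myh7. The bright Myh7 probe set is of the kind shared within a sequence family, and the other probe set of Myh7 had 1049 ± 326 (SD, n = 5). Myh6 and Myh7 are near-identical in sequence, and how far the bright probe set also measures Myh6 was not tested. The tropomyosins ran against the known order: Tpm3 had 873 ± 261 (SD, n = 5), and Tpm1, the main striated muscle member, had 239 ± 29.7 (SD, n = 5).

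Several mitochondrial and metabolic families were led by the muscle or heart member, and others were not. Cox6a2 had 6886 against 724 for the widely expressed Cox6a1, and Cox8b had 1586 ± 374 (SD, n = 5) against 33.0 for Cox8a. Cox7a2 at 2611 ± 164 (SD, n = 5) and the muscle member Cox7a1 at 2183 ± 363 (SD, n = 5) overlapped. Slc25a4 had 6409 against 1538 for Slc25a5, and Fabp3 had 4422 against 279 for Fabp5. Ldhb, the heart type of lactate dehydrogenase, had 3262 ± 265 (SD, n = 5) against 1571 ± 236 (SD, n = 5) for Ldha, and the muscle enolase Eno3 had 2364 ± 267 (SD, n = 5) against 171 for Eno2. Ckmt2, the mitochondrial creatine kinase, had 3569 ± 460 (SD, n = 5), while the brain type Ckb had 537 ± 84.4 (SD, n = 5) and Ckm, the muscle type, 219 ± 47.3 (SD, n = 5). Ucp1, the uncoupling protein of brown fat, had 105 ± 12.4 (SD, n = 5) against 72.5 ± 12.3 (SD, n = 5) for Ucp3, both below the median of the array type.

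Other families followed the known heart pattern in part. Eef1a2 had 4535 ± 186 (SD, n = 5) against 2205 for Eef1a1, a lead of 2.06-fold, also below the 3.16-fold between probe sets of 1 gene. Gja1, the ventricular connexin, had 2357 ± 276 (SD, n = 5) against 270 for Gjc1. Its second probe set had 29.9, and with plain probe sets only, the connexins were led by Gja5. Among the transcription factors, Gata1, a red cell factor, had 674 ± 103 (SD, n = 5) and the heart factor Gata4 had 193. Esrrb had 1458 ± 119 (SD, n = 5) and Esrra, the heart's main estrogen related receptor, 425. On the second type, 7 of 9 families were led by the same member in all arrays, and there Gata4 had 160 ± 13.0 (SD, n = 5) against 19.0 for Gata3.

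**Figure D2:**
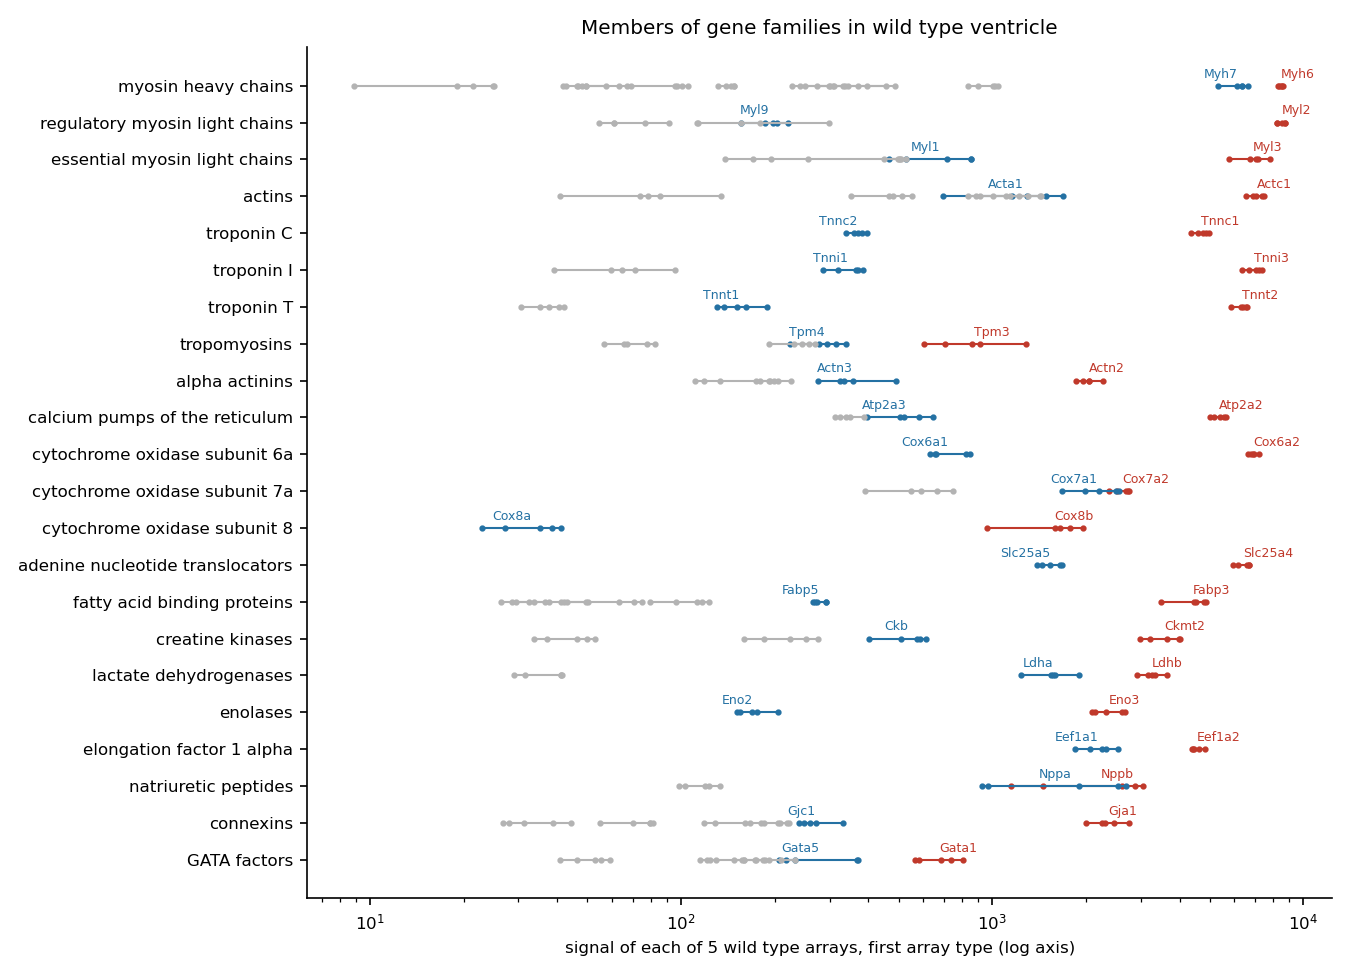
Signals of the members of 22 gene families in each of 5 wild type arrays of the first type (log axis). Points are arrays and lines their range, with the leading member in red, the next in blue and others in grey: Myl2, Tnnt2 and Cox8b lie farthest from the next member, while Nppb and Nppa, and Cox7a2 and Cox7a1, overlap.

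Cell type markers were read against 43 markers of tissues other than heart, such as lens, liver and brain, which had a median of 123 and a highest mean of 753, that of the lens crystallin Cryaa. Of all 8251 genes, 5.71% were above 753. Of 9 markers of ventricular cardiomyocytes, 8 were above it, and the ninth, Ryr2, was at 521. The median of these 9 markers was 6897. Of 9 markers of atrial cardiomyocytes, 1 was above 753, Nppa, and the others had means of at most 329.9, that of Dkk3. Nppa is on both lists and is also 1 of the 8 ventricular markers above 753.

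Markers of non-muscle cells were mostly within the range of the other tissue markers. Fibroblast markers above 753 were Dcn and Gsn, the actin severing protein gelsolin, at 1239 ± 225 (SD, n = 5), 2 of 13. The endothelial receptor Eng at 841 ± 128 (SD, n = 5) was 1 of 12, and Actg2, smooth muscle gamma actin, at 1139 ± 252 (SD, n = 5), 1 of 14 for smooth muscle and pericytes. None of 14 macrophage markers was above it, with C1qc, a complement subunit, highest at 336 ± 71.3 (SD, n = 5). None of the 9 adipocyte, 7 mesothelial or 11 neuron and Schwann cell markers was above it. Of 15 skeletal muscle markers 1 was above it, Acta1, which the heart also expresses.

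Red cell markers were split, with 3 of 6 above 753 and 3 below the median of the other tissue markers. Those above 753 were Hba-a1, the beta globin Hbb-b2 at 1298 ± 474 (SD, n = 5), and Klf1, a red cell factor, at 879 ± 44.5 (SD, n = 5). Hbb-b2 had signals of 1289, 678, 1414, 1986 and 1126, lowest in replicate 2 and highest in replicate 4. Of the leukocyte lists, 1 of 9 neutrophil markers was above 753, Ngp at 1016 ± 35.0 (SD, n = 5), while 4 lay below the median of the other tissue markers. For B cells it was 1 of 8, Pax5 at 805 ± 58.9 (SD, n = 5), and for T and NK cells 1 of 10, Zap70 at 1735 ± 268 (SD, n = 5), with 6 of the 10 below that median. The other probe sets of Zap70 had 95.9 and 89.5, and Cd3g, which defines T cells, had 16.1.

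**Figure D3:**
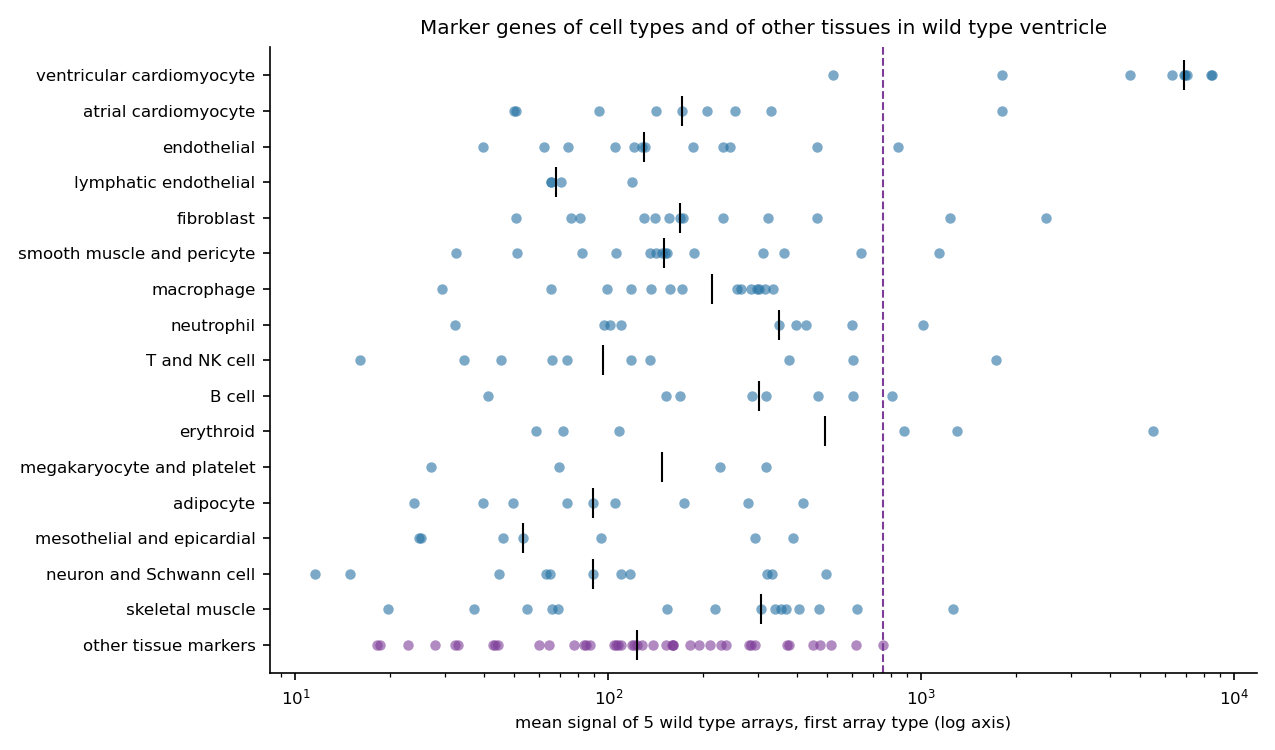
Mean signal of each marker gene over 5 wild type arrays of the first type (log axis), by cell type, with black bars at the median of a list. The dashed line is the highest of 43 markers of other tissues (753): 8 of 9 ventricular cardiomyocyte markers lie to its right, against 0 of 14 macrophage and 2 of 13 fibroblast markers.

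Spread between the wild type arrays was assessed for genes at or above the median signal of the type in all 5 arrays, 4259 on the first array type and 3956 on the second. The median SD of log2 signal was 0.15 and 0.16. An SD over 0.5 was seen for 31 genes (0.728%) on the first array type and 53 (1.34%) on the second, and an SD under 0.05 for 103 and 73. To rank genes, each SD was divided by the median SD of genes of similar mean signal, in 10 classes of equal size, and this quotient is called the spread ratio.

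The stress and fetal markers of the heart varied widely between the wild type arrays of the first type. These are genes known to rise in loaded hearts or to be shared with the fetal or atrial program. Their list, like the others, was chosen with earlier results of these data known. Of the 12 measured on the first type, all passed the filter on signal, and 9 had an SD of log2 signal over 0.3, against 8.05% of all genes assessed. The second type measured 3, of which 2 were assessed, neither with an SD over 0.3, and their median SD of 0.12 lay below the 0.16 of all genes there. On the first type, the mean log2 signals of these markers were 9.93, 9.24, 9.63, 9.70 and 9.05 in replicates 1 to 5, a range of 0.88. The thick filament genes spanned 0.24 and the genes of complex I 0.35 in the same arrays. Replicates 1, 3 and 4 were higher than replicates 2 and 5 in this mean.

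Nppa had signals of 2538, 929, 1904, 2688 and 968 in replicates 1 to 5, an SD of log2 signal of 0.74. Nppb had 2868, 1451, 2609, 3055 and 1145, an SD of 0.64. Both peptides were high in replicates 1, 3 and 4 and low in 2 and 5, with replicate 4 highest. Acta1 had 1492, 1153, 1694, 1291 and 694, an SD of 0.50, and Ankrd1 had 4281, 3228, 3882, 4278 and 2285, an SD of 0.38, both lowest in replicate 5. The atrial light chain Myl4 had 507, 139, 256, 195 and 170, and its other probe set had 221, 47.6, 142, 110 and 76.7, in the same order of arrays. The other atrial light chain, Myl7, had 299, 112, 179, 156 and 113. Both atrial light chains were highest in replicate 1, in which Nppa was not highest. The summed signal of the 9 atrial markers ran from 2094 to 4171 over the arrays, most of it Nppa itself, and Sln, a further atrial marker, was near the 20th percentile. The part of atrial tissue in these signals was not tested. Ccn2, a matrix-inducing growth factor known as CTGF, had 762, 381, 365, 599 and 311, and the LIM protein Fhl1 was highest in replicate 2 at 867, so the 9 genes did not share an order. Myh7, the beta myosin heavy chain and also a marker of this list, had an SD of log2 signal of 0.12 over signals of 5329 to 6624.

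**Figure D4:**
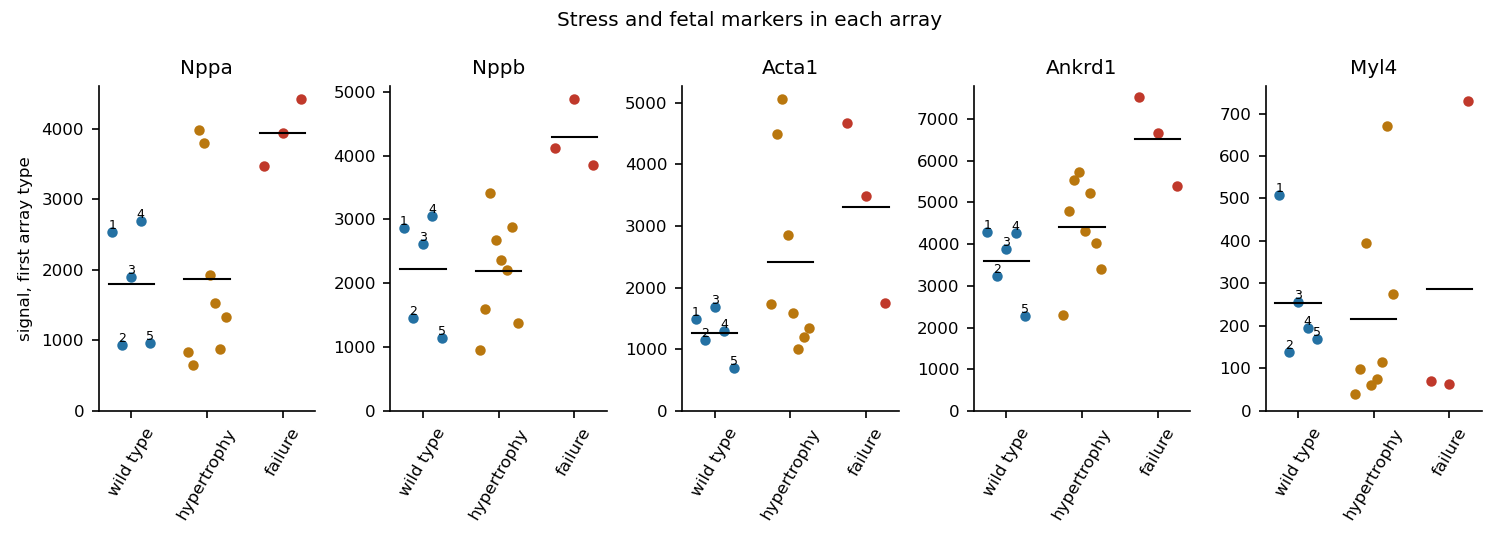
Signals of 5 stress or fetal markers on each array of the first type (linear axis from 0), for 5 wild type (blue, numbered by replicate), 8 hypertrophy (orange) and 3 failure arrays (red), with bars at group means. Wild type Nppa runs from 929 to 2688 and Nppb from 1145 to 3055, with replicates 2 and 5 lowest for both.

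The wild type range of these markers bears on the comparison with the transgenic groups. The highest wild type signal of Nppa, 2688, lay below the lowest of the failure arrays, 3475, and within the 646 to 3982 of the hypertrophy arrays. For Acta1 the highest wild type signal was 1694 and the lowest of failure 1757, a small gap beside the wild type range of 694 to 1694. For Myl4 the wild type range of 139 to 507 lay inside that of the 3 failure arrays, 64.1 to 730.

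Other highly variable genes were raised or lowered in single arrays or in other sets of arrays. Iigp1, an interferon-induced GTPase, had the highest spread ratio on the first type, 6.64, with 892 in replicate 1 and 166 to 254 in the others. Its second probe set had 550 in replicate 1 and 175 to 244 in the others. Pdk4, the fasting-induced inhibitor of pyruvate dehydrogenase, had 906 in replicate 1 and 218 to 296 in the others. Stmn3 and Erdr1 ranged from 146 to 612 and from 219 to 995. Corin, the protease that activates atrial natriuretic peptide, ranged from 152 in replicate 4 to 485 in replicate 1, not in the order of Nppa. Serpinh1, the collagen chaperone, ranged from 150 to 509 and Col5a1, a fibrillar collagen, from 317 to 951, both lowest in replicate 2.

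The others of the 15 highest spread ratios on the first type were Tmem214 (162 to 460), Gdf11 (132 to 369), Slc26a2 (214 to 676), Bag2 (295 to 795) and Ephb3 (306 to 863), with Nppa, Nppb and Myl4 already described. Tmem214 was low in replicates 1 and 5, and so was Gdf11, a circulating growth factor. Of 26 extracellular matrix genes assessed, 7 (26.9%) had an SD over 0.3, against 8.05% of all genes assessed. This was not particular to matrix genes. The share was 31.6% of 19 genes of fatty acid uptake and oxidation and 26.3% of 19 cytosolic ribosomal protein genes. It was 12% of 25 complex I genes and 0% of 12 ATP synthase genes.

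On the second type the highest spread ratios belonged to genes less known in heart. Gm31597, a predicted gene, had 1675 in replicate 4 and 91.8 to 296 in the others. Alpk3, a kinase gene of cardiac muscle, had 755 in replicate 2 and 206 to 288 in the others. Gnas, the stimulatory G protein alpha subunit, had 833 in replicate 2 and 250 to 311 in the others, Fnip1 had 355 against 93.6 to 128, and Cspg5 had 875 against 319 to 403. A brighter probe set of Gnas on the first type had 2815 ± 209 (SD, n = 5), with its lowest signal, 2460, in replicate 2. Replicate 2 was the highest array for 19 of the 53 genes with an SD over 0.5 on the second type. Mapk11 was low in replicate 4 at 183, against 460 to 542. The rest were Gm3134 (highest at 493 in replicate 4), Snx25 (80.0 to 343), Gm30556 (105 to 474), Dlgap3 (403 to 1355), Reep2 (84.4 to 301), Crtc2 (200.4 to 599), Borcs8 (132 to 406), Ip6k2 (144 to 445) and Pip4p1 (153 to 411).

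The most stable genes were found at all levels of signal. On the first type the lowest spread ratio was that of Ttc4, with 126 to 127 over the 5 arrays, followed by Ndel1 (528 to 539), Ift46 (481 to 495) and Metap1 (214 to 221). Next came Nr5a1 (850 to 879), Ifrd2 (284 to 296), Myh6 (8316 to 8590), Phc1 (136 to 141), Pccb (152 to 157) and Lhb (486 to 506). Myh6, the motor of adult mouse ventricle, was the only sarcomere gene of these 10, and Nr5a1 and Lhb are genes of steroid tissues and pituitary. The 10 of the second type were Patl1 (743 to 761), Ecd (337 to 346), E2f4 (147 to 154), Rbmx2 (476 to 494), Kank2 (158 to 166), Vmac (178 to 188), Rprd1b (325 to 336), Fam160a2 (230 to 242), Prdx2 (284 to 296) and Coro6 (507 to 531). On the first type, the median SD of log2 signal was 0.137 in the dimmest of the 10 classes of mean signal, 0.142 in the ninth and 0.157 in the brightest. Only genes at or above the median in all 5 arrays were assessed, so dim genes with a wide spread were left out. No trend of spread with signal is therefore read. The same filter bears on the low spread of dim genes such as Ttc4 and Phc1.

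**Figure D5:**
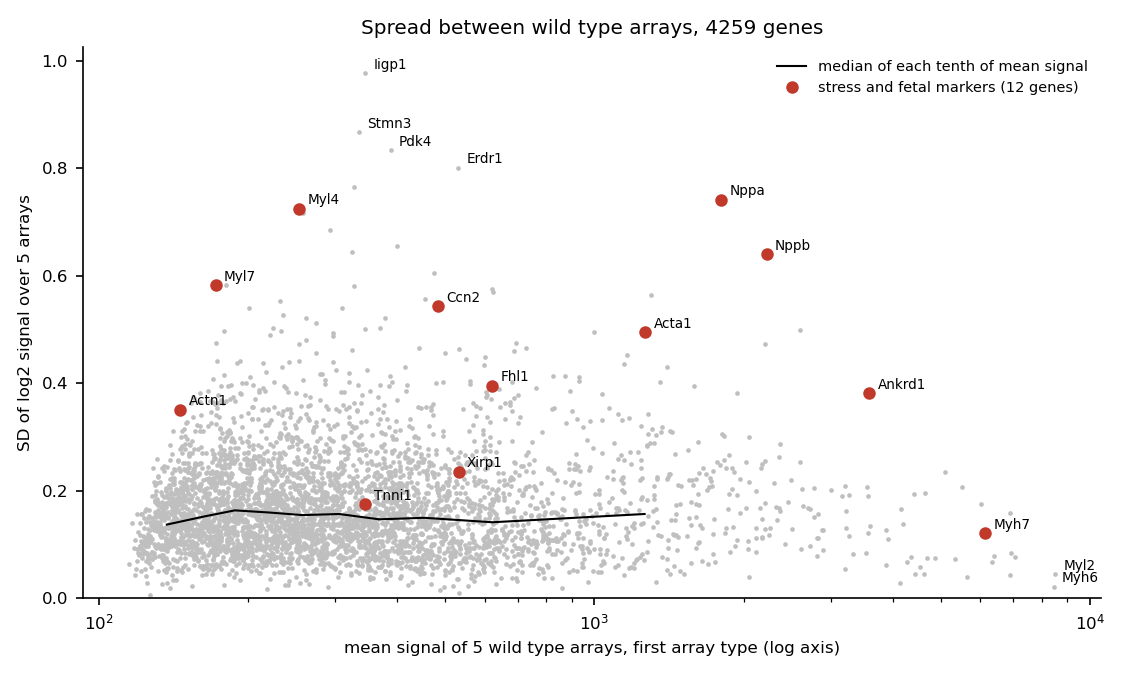
SD of log2 signal over 5 wild type arrays against mean signal (log axis) for 4259 genes of the first array type. The line is the median in each of 10 classes of mean signal, and red points are 12 stress and fetal markers, 9 of which lie above 0.3, while Myh6 and Myl2 lie near 0.

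Spread did not carry over between the array types. For 528 genes assessed on both, the spread ratios correlated with a Spearman rho of 0.056 across genes. Of the 50 with an SD over 0.3 on the first type, 7 had one on the second, against 8.71% of all 528, and for 11 the same replicate number was highest, against 21.2% of all 528. Deviations of same-numbered arrays of the 2 types correlated with r of 0.027 to 0.108 over these genes, against -0.101 to 0.044 for other numbers.

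The brightest wild type genes were also read in the transgenic groups, which share the 5 wild type arrays as controls. The genes were chosen for high signal in those same wild type arrays, which favours lower values in any other group, so no count by direction is read from them. On the first type, 47 of the 50 brightest wild type genes were among the 50 brightest in hypertrophy and 41 in failure, and on the second type 43 and 39. Of the 100 brightest genes of the first type, limma called 0 in failure at an adjusted p under 0.05, where 0.143% of 6980 probe sets were called and 746 had an unadjusted p under 0.05. The smallest adjusted p was that of Myh7, 0.075. In hypertrophy limma called none of the 100, where 0% of 6980 were called and 312 had an unadjusted p under 0.05.

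Myh7, the beta heavy chain that returns in failing mouse hearts, was measured by both of its probe sets. Its bright probe set ran from 5329 to 6624 in wild type and from 8905 to 10072 in failure, a log2 change of 0.61 (SE 0.13, limma adjusted p = 0.075). The dimmer probe set had 1049 ± 326 (SD, n = 5) in wild type and 3569 ± 677 (SD, n = 3) in failure. Its log2 change of 1.81 (SE 0.23, limma adjusted p = 0.0037) passed the test. Without failure replicate 1 the adjusted p was 0.054. In hypertrophy it had 1745 ± 331 (SD, n = 8), overlapping wild type, with a limma adjusted p of 0.59.

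On the second type limma called 2 of the 100 brightest genes in failure, where 0.357% of 7004 probe sets were called. Rab3gap1, a regulator of Rab GTPases, was at 1095 ± 90.6 (SD, n = 5) in wild type and 609 ± 64.5 (SD, n = 3) in failure, a log2 change of -0.85 (SE 0.15, limma adjusted p = 0.024). Dok4, a docking protein, was at 1452 ± 124 (SD, n = 5) and 798 ± 174 (SD, n = 3), a log2 change of -0.88 (SE 0.17, limma adjusted p = 0.036). Both were lower in failure, the direction that their choice for high wild type signal favours. Both lost the call without failure replicate 1 (limma adjusted p = 0.13 and 0.19) or replicate 2 (0.12 and 0.11). They also lost it with the replicate number as a block (0.13 for both). Dok4 also lost it without any 1 of the wild type arrays (0.06 to 0.094) and without hypertrophy replicate 4 or 6, and Rab3gap1 without wild type replicates 1, 3, 4 or 5 (0.054 to 0.068). In hypertrophy limma called none of the 100, where 0.171% were called and 684 had an unadjusted p under 0.05.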

How the data were processed

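Total RNA of mouse cardiac ventricle was measured on 2 Affymetrix array types, with 5 wild type, 8 hypertrophy and 3 failure arrays each. The deposited values are linear intensities per probe set, with 1 as the lowest. The authors' summary and scaling steps behind the deposited intensities are not described in the labels or the files, and the values were used unchanged. Depth has no counterpart on arrays, and the number of arrays limits the precision. Of 12488 and 12477 probe sets, 10833 and 10581 had 1 gene in the platform annotation, with symbols updated to GRCm38.p6. Probe set names ending in _f_at, _i_at, _r_at, _s_at or _g_at mark probes shared with other sequences or chosen with relaxed rules, and the other probe sets are called plain.

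Genes were ranked by mean wild type intensity within each array type. The genes named are the 25 brightest, the 15 highest and 10 lowest spread ratios per type, the leading and next family members, the brightest members of each list, markers always named, and bright genes called against a transgenic group. The members, lists and rules were chosen with earlier results of these data known. For comparisons with the transgenic groups, values below the 20th percentile were raised to it, log2 was taken, and limma 3.58.1 in R 4.3.3 was fitted to the 16 arrays of a type, with Benjamini-Hochberg adjustment, for the 6980 and 7004 probe sets at their array's median in at least 3 arrays. The limma fit and the spread ratio were tested on simulated data. Alternatives were quantile and median scaling, other summaries, plain probe sets only, other filters, a replicate block, and leaving out arrays. Figures were drawn with matplotlib 3.10.9 in Python.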

Additional observations from a re-analysis of the deposited data

Results flagged for a closer look

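For 189 named genes, the highest or lowest of the 5 wild type arrays was compared with the other 4. In 17 genes (8.99%) the gap was more than 0.71 of the whole range, Dixon's limit for 5 values. Chance passes this limit in about 1 of 20 groups, and over all genes 6.23% passed it on the first array type and 6.71% on the second. The named genes include those picked for the highest and lowest spread ratios in these same arrays. Their share is therefore not read against that of all genes.

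On the first type, replicate 2 stood below the others for the sarcomere protein gene Mybpc3 (3635 against 4757 to 5121) and for Fabp3 (3479 against 4465 to 4857). Replicate 1 stood above the others for the interferon-induced Iigp1 (892 against 166 to 254), for the fasting-induced kinase Pdk4 (906 against 218 to 296) and for Hrc (2127 against 1728 to 1799). It stood below them for Phc1 (136 against 139.8 to 141) and for the uncoupling protein gene Ucp3 (50.99 against 75 to 81.2). Replicate 5 was highest for the macrophage marker C1qc (459 against 285 to 335).

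On the second type, replicate 2 was lowest for the Z-disc gene Myoz2 (980.0 against 1297 to 1370). It was highest for Alpk3 (755 against 206 to 288), Gnas (833 against 250.2 to 311), Fnip1 (355 against 93.6 to 128) and Cspg5 (875 against 319 to 403). Replicate 4 was highest for Gm31597 (1675 against 91.8 to 296) and lowest for Mapk11 (183 against 459.6 to 542) and for Incenp (1299 against 2029 to 2249). Replicate 5 was highest for Srcap (1907 against 1668 to 1707). Causes were not tested.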

How the results depend on the processing

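Of the 50 brightest genes, 37 to 50 stayed among the 50 brightest under the alternatives, except that 30 of 50 did on the second type with the mean over the probe sets of a gene. Leaving out 1 wild type array kept 48 to 49 on the first type and 48 to 50 on the second, and the same member led all arrays in 48 to 51 and 7 to 8 families. Genes with an SD over 0.5 numbered 31 and 53 as reported. They numbered 8 and 19 with the filter at the 75th percentile, 26 to 46 and 42 to 69 with 1 array left out, and 204 and 216 by the range with the farthest array left out. Comparisons with the transgenic groups moved most. On the first type, failure calls were 10 as reported, 30 with quantile scaling, 33 with median scaling, 22 with no filter, 122 with only the 2 groups compared and 0 to 51 with 1 array left out. Hypertrophy calls were 0, 1 with no filter and 0 to 1 with 1 array left out. On the second type, failure calls were 25, then 40 with median scaling, 55 with no filter, 193 with only the 2 groups and 4 to 79 with 1 array left out. Hypertrophy calls were 12, and 5 to 26 with 1 array left out. With the replicate number as a block, failure calls were 3 and 6 and second-type hypertrophy calls 3. Dok4 and Rab3gap1 fell by 0.91 and 0.85 on the log2 scale with that block and lost their calls. The labels do not say that same-numbered arrays share an animal. Correlations of their deviations across the array types were 0.027 to 0.108, against -0.101 to 0.044 for other numbers. Whether they share an animal was not tested. The causes of these shifts were not tested.

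The arrays have no read depth. Signals near the 20th percentile (39.5 and 27.5) are not told apart from background here, and 5 arrays limit the precision of each SD.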
